A study of Mus musculus with 2 samples.

Results

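The Sfi1 locus is described here as the cytosines called in or near Sfi1, a protein-coding gene on mouse chromosome 11 (mm10, 3131850 to 3203347, 71498 bp). All listed cytosines from 3129850 to 3205347, the gene with 2 kb on either side, were taken in any sequence context and on both strands. Replicate 1 listed 70 such sites of 28569 in all, and replicate 2 listed 55 of 29650. The locus was chosen by these same values, its number of called sites and of sites called in both replicates, which was the highest of any protein-coding gene. Its site numbers are therefore a description and carry no test. Genomic DNA came from mouse embryonic stem cells, which are cultured pluripotent cells. The strain, line, passage and any treatment are not given in the sources used here. The libraries, labelled replicates 1 and 2, form 1 group, and with no control beside them the data allow no comparison of conditions.

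Sfi1 encodes a protein with many centrin-binding repeats. It sits at the centriole, the core of the centrosome, which organises the poles of the dividing cell. 5-formylcytosine (5fC) arises when TET enzymes oxidise methylated cytosine, and the glycosylase TDG can cut it out on the way back to unmodified cytosine. CLED-seq attaches biotin to 5fC and captures the fragments that carry it. The deaminase A3A then converts the unlabelled cytosines, so that a base still read as C is a candidate 5fC. A site's level is the percentage of its reads still showing C. It refers to captured fragments, not to genomic copies.

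Other annotated genes share this stretch of chromosome 11. The transcribed pseudogene Pisd-ps1 (3124002 to 3131945) overlaps the lower-coordinate end of Sfi1, and the long noncoding RNA gene Gm33862 (3137076 to 3139791) and the pseudogenes Gm11400 (3149476 to 3151017) and Fau-ps2 (3196390 to 3196727) lie within it. At the other end it overlaps Gm51877 (3201544 to 3203218) and Eif4enif1, the gene of a transporter protein that carries the translation factor eIF4E into the nucleus (3202343 to 3244588). Exons and the strand of Sfi1 were not used here, so sites are not assigned to exon, intron or UTR.

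A RefSeq promoter sequence (GRCm38.p6, the same build as mm10; 300 bases around a gene start) was at hand for 3 gene starts whose window held a called site, of which 2 are starts of Eif4enif1 with overlapping windows that hold the same site. The lower of these and the window of Gm33862 are printed. They are shown because they place 3 of the calls in their sequence. Capitals mark each called cytosine with the 2 bases after it, read 5′ to 3′ on the plus strand.
Gm33862, chr11:3136826-3137125, plus strand: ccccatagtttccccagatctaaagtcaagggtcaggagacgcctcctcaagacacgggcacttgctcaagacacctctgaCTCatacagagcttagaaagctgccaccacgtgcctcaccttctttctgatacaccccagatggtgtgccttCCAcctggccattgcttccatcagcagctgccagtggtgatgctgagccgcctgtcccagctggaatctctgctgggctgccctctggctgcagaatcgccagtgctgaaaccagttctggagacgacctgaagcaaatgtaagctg
Eif4enif1, chr11:3202745-3203044, plus strand: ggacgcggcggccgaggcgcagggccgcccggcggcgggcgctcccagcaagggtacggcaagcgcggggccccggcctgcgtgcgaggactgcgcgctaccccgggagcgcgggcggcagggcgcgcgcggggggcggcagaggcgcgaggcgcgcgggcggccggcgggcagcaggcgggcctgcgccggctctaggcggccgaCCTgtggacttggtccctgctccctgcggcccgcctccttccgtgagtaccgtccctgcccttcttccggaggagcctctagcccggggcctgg

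In the Gm33862 window the replicates called different cytosines. Replicate 1 called the CCA site at position 3136979, at 74.2% (23 of 31 reads; 95% Wilson interval 56.8 to 86.3). Replicate 2 called the CTC site at 3136907, at 61.1% (22 of 36 reads; 44.9 to 75.2), which lies 72 bp away on the same strand. The window holds 167 cytosines on both strands and 6 CpGs, and neither called base is in a CpG. In the Eif4enif1 window replicate 1 called the CCT site at 3202951, where all 41 reads kept the C (lower bound 91.4%). That was the highest level in the locus, and the site was the last listed before the upper end of the window. Replicate 2 listed 0 sites in that window. It holds 46 CpGs, each with a cytosine on either strand, and 242 cytosines on both strands in all, and the called base is again outside CpG. Coverage of the unlisted cytosines is not known, so they cannot be read as unmodified.

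Called sites crowded the lower-coordinate end of Sfi1 and were sparser in the rest of the gene. The lower 23832 bp of the gene, the first of 3 parts of about equal length, held 39 sites in replicate 1 and 27 in replicate 2, or 16.4 and 11.3 per 10 kb. The middle part held 12 and 17, and the upper part 18 and 9. The first 10 kb of the gene alone held 21 and 15 sites, and the 10 kb from 30 kb to 40 kb held 3 and 6. Replicate 1 rose again to 8 and 7 sites in the 10-kb steps from 50 kb to 70 kb, where replicate 2 held 4 and 5. In each replicate the longest stretch without a call was over 9 kb. In replicate 1 it ran from 3159581 to 3168806 (9225 bp), and in replicate 2 from 3174445 to 3183638 (9193 bp). Each gap held calls of the other replicate, 5 in the first and 3 in the second.

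**Figure D1:**
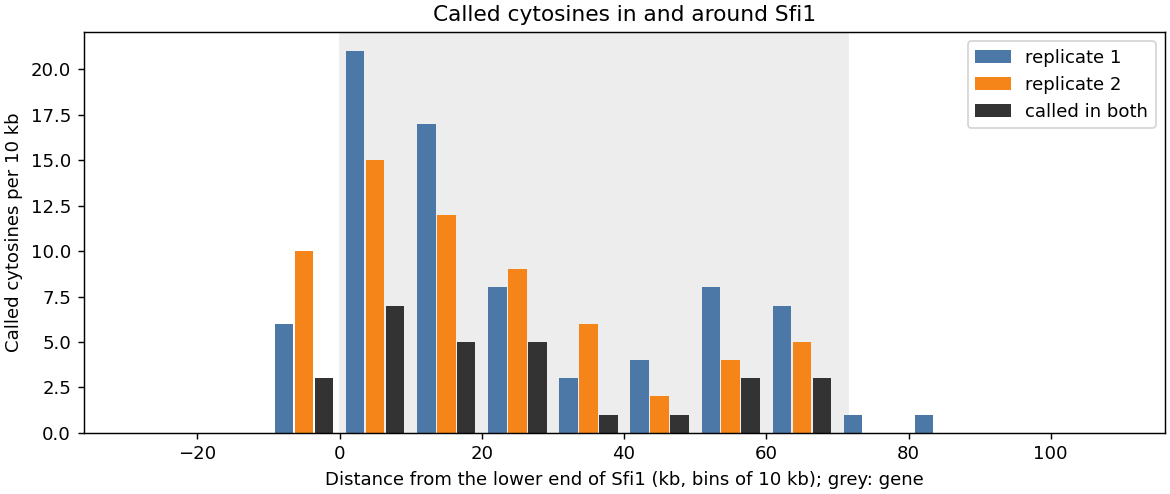
Called cytosines per 10 kb (y axis) by distance from the lower-coordinate end of Sfi1 in kb (x axis), for replicate 1, replicate 2 and sites called in both; grey marks the gene. The highest bars, 21 and 15 sites, stand in the first 10 kb of the gene, and the bins more than 10 kb below the gene are empty.

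The dense stretch began below Sfi1, in Pisd-ps1. On chromosome 11 the first listed site of both replicates was at 3125971. Below the start of Sfi1 replicate 1 listed 6 sites and replicate 2 listed 10, and all of them lay in Pisd-ps1. Of these, 1 and 2 fell in the 2 kb flank. With its flanks, Pisd-ps1 held 11 and 14 sites, or 9.21 and 11.7 per 10 kb, against 9.27 and 7.29 per 10 kb in the Sfi1 window. These 2 spans overlap, so some sites are counted in both and the densities are not separate. Pisd-ps1 without flanks, 7944 bp long, held 6 and 10 sites. Just outside the window on the lower side, replicate 1 listed a site at 3127993 (63.6%, 21 of 33 reads) and replicate 2 a site at 3127914 (59.4%, 19 of 32 reads). The first site beyond the upper edge was 15921 bp away in replicate 1 and 83648 bp away in replicate 2.

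Genes above Sfi1 carried far fewer calls than Sfi1, counted with 2 kb flanks. The 500 kb above the window held 14 sites in replicate 1 and 13 in replicate 2, or 0.280 and 0.260 per 10 kb. Over chromosome 11 the figures were lower, at 0.173 and 0.179 per 10 kb. Drg1, which encodes a GTP-binding protein, held 1 and 0 sites, and the zinc finger gene Patz1 held 2 and 2. The kinase gene Limk2, about as long as Sfi1 at 65980 bp, held 1 and 3. The ubiquitin ligase gene Rnf185 and the phospholipase gene Pla2g3 held 0 in both. Farther up, the smooth muscle gene Smtn held 4 and 4. The oxysterol-binding protein gene Osbp2, 160269 bp long, held 10 and 11, but it begins at 3703731 and runs mostly beyond the 500 kb.

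Against genes of like length Sfi1 stood far out, as its choice implies. There were 1453 other protein-coding genes within 20% of its length. Their median was 1 site in each replicate, and the highest counts were 11 in replicate 1 and 10 in replicate 2. The most sites called in both that any of them held was 6, in Lrp1, which encodes an endocytic receptor, and 943 of the 1453 held 0. Genes that came next to Sfi1 in sites called in both were much longer. Wwox, which encodes an oxidoreductase, held 16 over 913078 bp (0.174 per 10 kb), Gse1 held 14 (0.392), Camta1 and Tmem132d 12 each (0.149 and 0.184), and the ion channel gene Asic2 11 (0.101). The Sfi1 window held 25, or 3.31 per 10 kb.

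Levels in Sfi1 were mostly low. In replicate 1 they ran from 20.9% to 100% with a median of 33.7%, and in replicate 2 from 20.4% to 91.7% with a median of 36.1%. At all listed sites outside the window the medians were 46.7% and 46.3%. Levels under 50% were found at 51 of 70 sites (72.9%, Wilson interval 61.5 to 81.9) and 40 of 55 (72.7%, 59.8 to 82.7), against 52.9% and 53.5% outside. Levels of at least 80% were found at 5 sites in each replicate (7.14% and 9.09%), against 22.1% and 21.6% outside. The median depth was 34.5 and 36 reads in the window and 34 outside in both. The difference in level was not tested, because the sites of a library share their source and only 2 libraries exist.

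**Figure D2:**
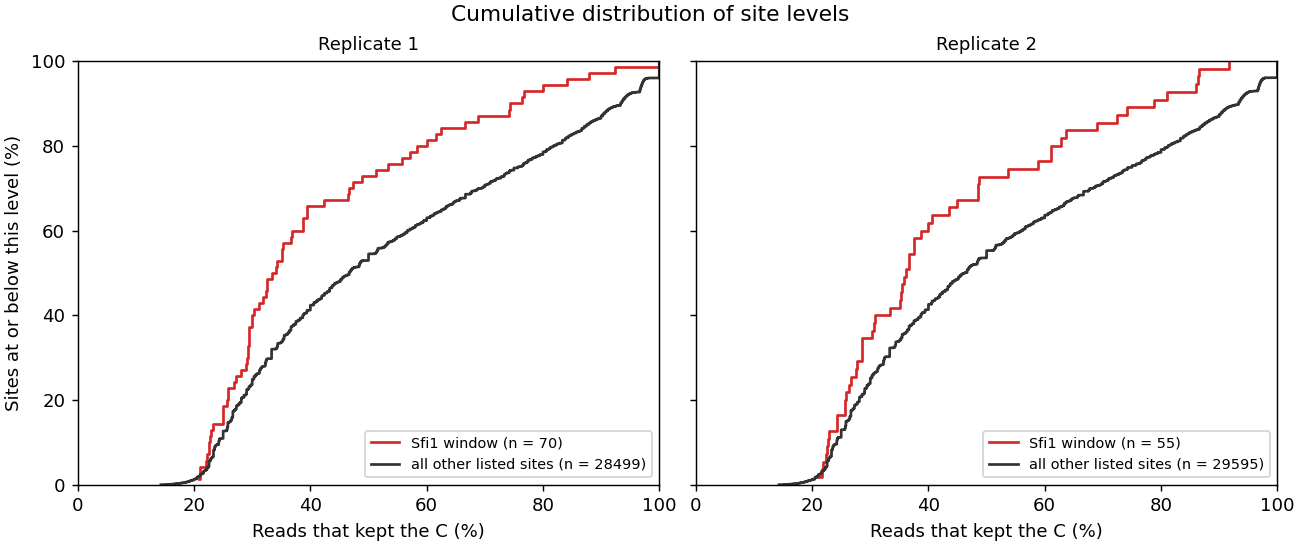
Share of sites at or below a level (y axis, %) against the level (x axis, % of reads that kept the C), in each replicate, for the Sfi1 window (red) and all other listed sites (black). Both red curves lie above the black ones over most of the range, with medians of 33.7% and 36.1% against 46.7% and 46.3%.

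The deposited calls were weaker too, which is no separate result, since their p-values rest on the same counts and depths as the levels. The authors' Holm-adjusted p was below 0.05 at 24 of 70 sites in replicate 1 (34.3%) and 20 of 55 in replicate 2 (36.4%), against 57.3% and 56.9% of sites outside the window. The other sites were listed on the Benjamini-Hochberg adjusted p alone. Crowded parts of the genome outside Sfi1 had lower levels still. Windows of 10 kb with at least 10 sites in both replicates numbered 12, of which 3 lie end to end from 3130000 to 3159999 and hold 47 and 37 of Sfi1's calls. In those 3 the median level at Sfi1 sites was 34.1% and 36.7%, with median depths of 34 and 36 reads. The other 9 were mostly more crowded, with 14 to 291 sites in replicate 1 and 15 to 316 in replicate 2 against 10 to 19 and 10 to 14, and 1 window on chromosome 17 gave 291 of their 746 and 316 of their 686 sites. In these 9 the median was 23.3% and 23.6%, with median depths of 56 and 54.5 reads. The crowded windows of Sfi1 thus had neither the depth nor the very low levels of the others, a difference that was not tested. Level and depth are linked here, since a deeper site can pass the adjusted p at a lower level. At 30 reads the lowest level listed in the Sfi1 window was 23.3% in replicate 1 and 26.7% in replicate 2.

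Most called cytosines in Sfi1 lay outside CG. CG sites were 5 of 70 in replicate 1 (7.14%, 3.09 to 15.7) and 3 of 55 in replicate 2 (5.45%, 1.87 to 14.9), against 8.01% and 8.21% outside the window. CHG sites (H stands for A, C or T) were 28.6% and 27.3%, and CHH sites 64.3% and 67.3%, against 24.7% and 24.2%, and 67.3% and 67.6%, over all listed sites. The next base was C at 40.0% and 34.5% of sites, A at 27.1% and 30.9%, and T at 25.7% and 29.1%. Over all listed sites it was C at 28.6% and 29.2%, A at 32.4% and 31.9%, and T at 31% and 30.7%. CCT was the most frequent triplet in replicate 1, at 14 sites (20.0%, against 9.08% of all listed sites), but stood at 7 in replicate 2 (12.7%, against 9.44%), where CCA and CAG led with 9 each. Both strands were called about equally, with 39 plus and 31 minus sites in replicate 1 and 30 and 25 in replicate 2. Plus-strand sites had median levels of 31.8% and 34.2%, and minus-strand sites 35.1% and 40.6%.

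The CG sites, where TET enzymes mainly act, spread over the gene at modest levels. The first lay 0.202 kb inside the gene at position 3132052, plus strand, and stood at 29.4% in replicate 1 (10 of 34 reads; 16.8 to 46.2) and 27.8% in replicate 2 (10 of 36; 15.8 to 44.0). Inside the pseudogene Gm11400 the CG site at 3150812, plus strand, stood at 35.1% in both, with 13 of 37 reads each (21.8 to 51.2). These were the 2 CG sites called in both replicates. Replicate 1 alone listed CG sites at 3143515 (36.8%, 14 of 38 reads), 3195644 (36.7%, 11 of 30) and 3193474. The last was the highest CG site, at 76.7% (23 of 30; 59.1 to 88.2). Replicate 2 alone listed a CG site at 3174445 (40.0%, 14 of 35), at the lower edge of its longest gap. No CpG was called on both strands, of 5 with a call in replicate 1 and 3 in replicate 2. Such calls were rare over all listed sites, at 10 of 2278 and 10 of 2422 CpGs, so these small numbers say nothing particular of Sfi1. Outside CG, median levels were 29.3% and 36.7% at CHG sites and 34.3% and 36.1% at CHH sites.

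**Figure D3:**
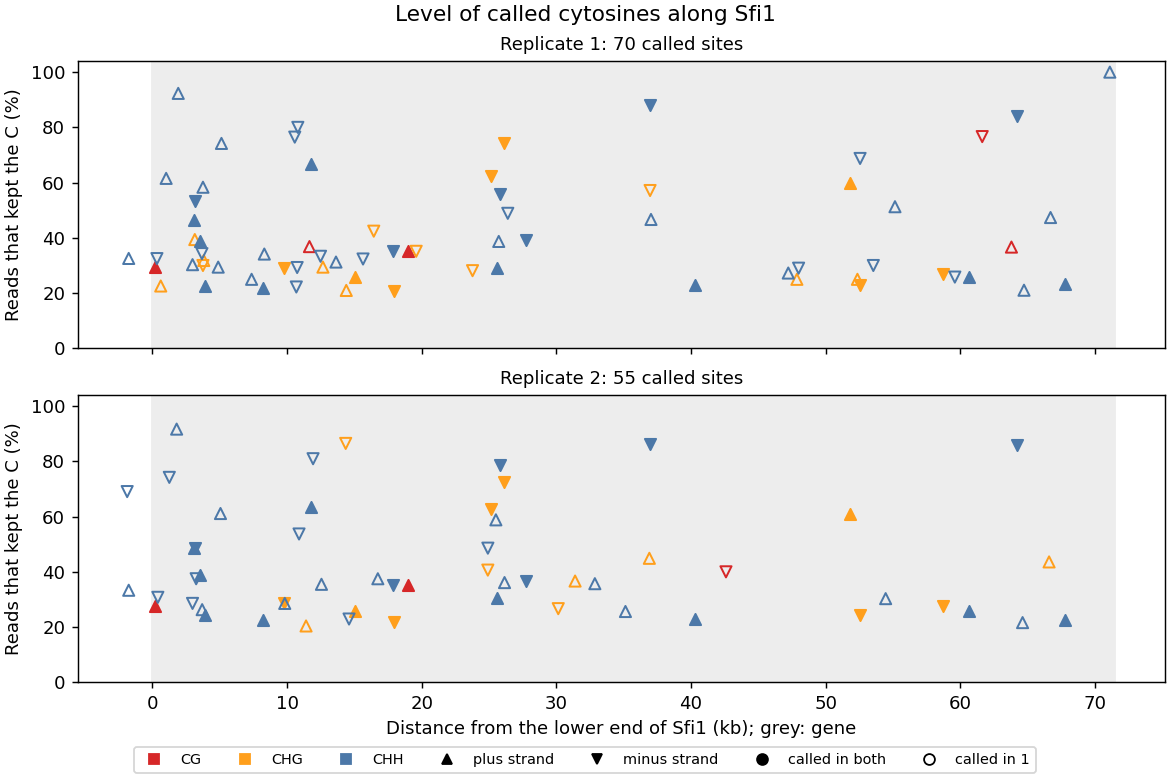
Level of each called cytosine (y axis, % of reads that kept the C) by distance from the lower-coordinate end of Sfi1 in kb (x axis), replicate 1 above and replicate 2 below. Colour gives the context, triangles the strand, filled symbols the 25 sites called in both, open symbols sites called in 1 replicate, and grey the gene; most points lie under 50% and the CG sites are few.

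The replicates called 25 sites in common, of 100 distinct sites. That is 35.7% of the sites of replicate 1 and 45.5% of those of replicate 2, where 40.4% and 38.9% of all listed sites were called again. All 25 lay inside the gene. Of them, 2 were CG, 8 CHG and 15 CHH, and 13 were on the plus strand. At 17 of the 25 the level was under 50% in both replicates, and at 7 it was at least 50% in both. The remaining site, at 3135042, stood at 53.3% (16 of 30 reads) and 48.5% (16 of 33).

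Shared sites were ranked by the lower of their 2 levels, which places 3157680 (55.8% and 78.8%) outside the highest 5 although it was the third highest in replicate 2. The highest 5 by this rank were all non-CG and 4 of them were on the minus strand. The CAT site at 3168806 stood at 88.0% in replicate 1 (44 of 50 reads; 76.2 to 94.4) and 86.3% in replicate 2 (44 of 51; 74.3 to 93.2). The CCC site at 3196046 stood at 84.1% (37 of 44) and 86.0% (37 of 43). These were the 2 shared sites at 80% or more. Next by this rank came the CTG site at 3157960, at 74.4% (29 of 39) and 72.5% (29 of 40). The CCT site at 3143650, on the plus strand, stood at 66.7% (22 of 33) and 63.6% (21 of 33). The CTG site at 3156980 stood at 62.5% (20 of 32) and 62.9% (22 of 35). The levels of these 5 differed by little between the replicates, but the rank favours sites with like levels, and 3157680 is not among them.

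At the low end the values were as alike. The CAG site at 3149801, in Gm11400, stood at 20.9% (9 of 43 reads) and 22.0% (9 of 41). The CTT site at 3140079 stood at 22.0% (11 of 50) and 22.4% (11 of 49). The next 3 by the lower of both levels were 3135793 (22.6% and 24.2%), 3199627 (23.3% and 22.6%) and 3172121. The site at 3172121 was the deepest shared site, with 13 of 57 reads in both replicates (22.8%; 13.8 to 35.2). The lowest levels in the window, 20.9% in replicate 1 and 20.4% in replicate 2, lay above the lowest over all listed sites, 14.3% in both. Deeper sites can be listed at lower levels, so these minimums are not on the same footing. Depth reached 62 and 57 reads in the window, against 137 and 172 over all listed sites.

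The other shared sites filled the range between. Near the lower end of the gene, 3134967 stood at 46.5% and 48.8% and 3135368 at 38.7% in both. Between 9 kb and 18 kb into the gene, 3141610 stood at 29.3% and 28.6%, 3146927 at 25.8% in both and 3149698, in Gm11400, at 35.3% in both. Around 26 kb to 28 kb lay 3157452 (28.9% and 30.6%), 3159581 (39.4% and 36.7%) and 3157680, described with the comparison of the replicates. In the upper part, 3183638 stood at 60.0% and 61.1%. The next 3 shared sites were low, with 3184370 at 22.9% and 24.2%, 3190551 at 26.8% and 27.5%, and 3192491 at 25.7% in both. Not all sites of that part were low, since the shared site at 3196046 stood at 84.1% and 86.0%. Sites called there in replicate 1 alone were mixed, with 3193474 at 76.7%. Gm11400 thus held 3 called sites in each replicate, and all 3 were shared.

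Levels at the shared sites were compared between the replicates by a two-sided Fisher's exact test, adjusted by the Benjamini-Hochberg method over all 11542 shared sites of the genome. At an adjusted p below 0.05, 0 of the 25 differed, against 3 of 11542 (0.0260%) over all shared sites. An unadjusted p under 0.05 was found at 1 of the 25. This was the CAC site at 3157680, at 55.8% in replicate 1 (29 of 52 reads; 42.3 to 68.4) and 78.8% in replicate 2 (26 of 33; 62.2 to 89.3). The difference of 23.0 points had an unadjusted p of 0.0374 and an adjusted p of 1.00 by Fisher's exact test, with the level higher in replicate 2. The next lowest p was 0.802, at 3135042 (Fisher's exact test, unadjusted). At the other 24 sites the levels differed by under 5 points, and the median absolute difference over the 25 was 1.11 points. The chi-square of the counts was 0.212 per degree of freedom over the 25 sites, below the 1 that independent sampling gives on average, and 0.0611 over the shared sites of the whole genome. The replicates thus differed by less than sampling noise over these sites, and were counted there as 1 sample. A site called in both is therefore not taken as found independently in each, and 0 differences do not show that separate samples would agree. Whether the libraries share molecules was not tested.

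Counts of reads that kept the C matched between the replicates more often than counts of reads that lost it. The number of reads that kept the C was the same in both replicates at 19 of 25 shared sites (76.0%, 56.6 to 88.5). The number that lost the C was the same at 7 of 25 (28.0%, 14.3 to 47.6), and both numbers at 6 (24.0%, 11.5 to 43.4). At shared sites outside the Sfi1 window the shares were 83.5%, 77.7% and 70.7%. In the other crowded windows they were 19.1%, 5.62% and 0.843% of 356 sites. Sfi1 thus lay near the bulk of the genome in the reads that kept the C and between the bulk and the crowded windows in the reads that lost it. No test of these differences was made. Exactly equal counts become rarer as depth rises, and the sets differed in depth. Median depths were 35 and 36 reads in Sfi1, 34 in both replicates outside its window, and 51 and 57 in the other crowded windows. Outside the 3 crowded windows of the gene, 7 of 8 shared sites had equal numbers of reads that kept the C and 3 of 8 equal numbers that lost it.

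**Figure D4:**
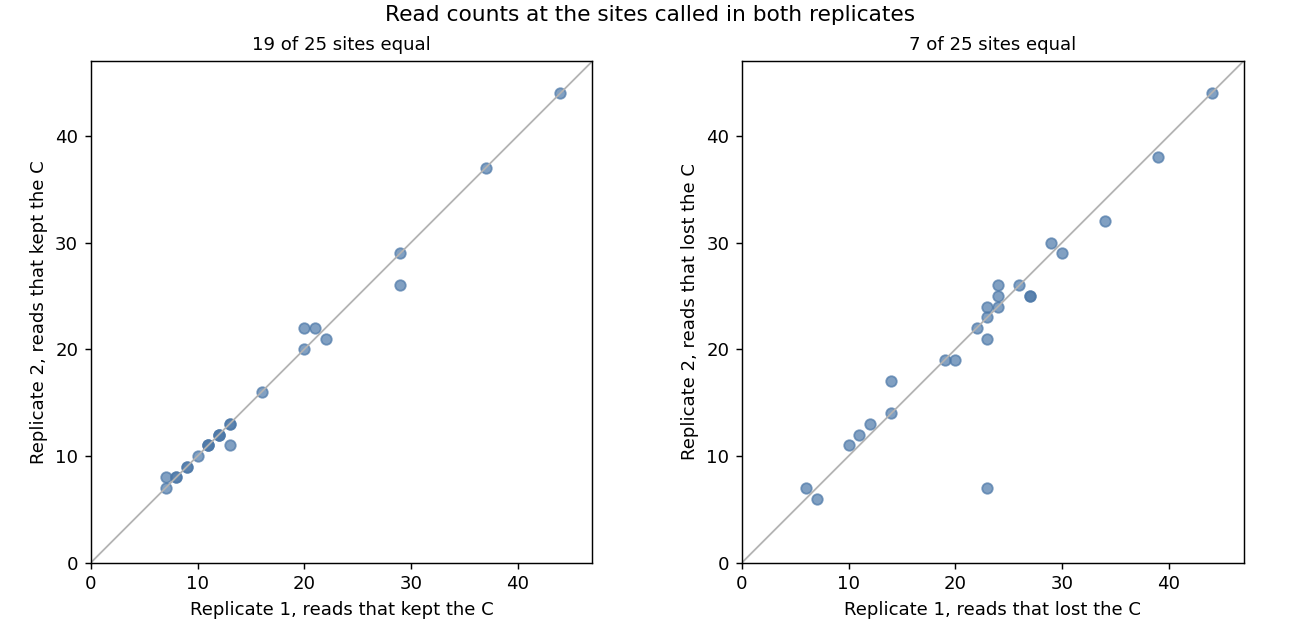
Reads that kept the C (left) and reads that lost it (right) at the 25 shared sites, replicate 1 on the x axis and replicate 2 on the y axis, with the line of equality. Points lie on the line at 19 sites on the left and at 7 on the right, and the point far below the line on the right is the site at 3157680.

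Sites called in only 1 replicate numbered 45 in replicate 1 and 30 in replicate 2. Their median levels, 33.3% and 37.1%, were close to the 35.1% that shared sites had in both replicates. Outside the window, shared sites had a median of 50.0% in both and the others 45.2% and 44.1%. In replicate 1 the highest after 3202951 were 3133770, at 92.3% (36 of 39 reads), and 3142651, at 80% (24 of 30). The lowest were 3146248, at 21.0% (13 of 62 reads, the greatest depth in the locus), 3196577, at 21.1% (8 of 38), and 3142539, at 22.2% (8 of 36). In replicate 2 the highest were 3133651 (91.7%, 33 of 36 reads), 3146205 (86.5%, 32 of 37) and 3143782 (81.0%, 34 of 42). The lowest there were 3143262 (20.4%, 10 of 49), 3196471 (21.6%, 8 of 37) and 3146453 (22.9%, 11 of 48). The site at 3142740, at 53.7%, was the deepest called in replicate 2 alone, with 54 reads.

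Several of these sites had a counterpart with nearly the same counts at another position in the other replicate. Within 120 bp of each other lay 18 pairs with 1 site from each replicate, which involved 17 of the 45 sites of replicate 1 and 14 of the 30 of replicate 2. In 7 of the 18, the reads that kept and the reads that lost the C both differed by at most 3. Pairs within a replicate were counted over all its sites, shared ones included, so they are not directly comparable with these 18. There, 20 pairs lay that close in replicate 1, of which 1 was so alike, and 9 in replicate 2, of which 0 were. Over all listed sites, 68.5% of 6505 such pairs between the replicates differed by at most 3 reads, against 38.9% in Sfi1. That difference was not tested.

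The 7 pairs included the highest sites of each replicate inside the first 2 kb of the gene. These were 3133770 in replicate 1 (36 reads kept and 3 lost the C) and 3133651 in replicate 2 (33 and 3), 119 bp apart. In the flank, in Pisd-ps1, the sites at 3130091 (14 and 29) and 3130092 (14 and 28) were adjacent bases of the plus strand. The sites at 3134831 (10 and 23) and 3134830 (10 and 25) were also adjacent but lay on opposite strands. Also on opposite strands were 3134999 (13 and 20) and 3135100 (12 and 20), 101 bp apart. On the minus strand 3132187 (13 and 27) and 3132255 (12 and 27) lay 68 bp apart. Near the upper end, 3196577 (8 and 30) and 3196471 (8 and 29), in Fau-ps2, lay 106 bp apart, and 3198548 (18 and 20) and 3198439 (17 and 22) lay 109 bp apart. The other flank site, 3129978 in replicate 2 (69.0%, 29 of 42 reads), lay 113 bp from 3130091 but at unlike counts. Of the 11 remaining pairs, the widest apart in level was 3146248 (21.0%) with 3146205 (86.5%), on opposite strands.

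**Figure D5:**
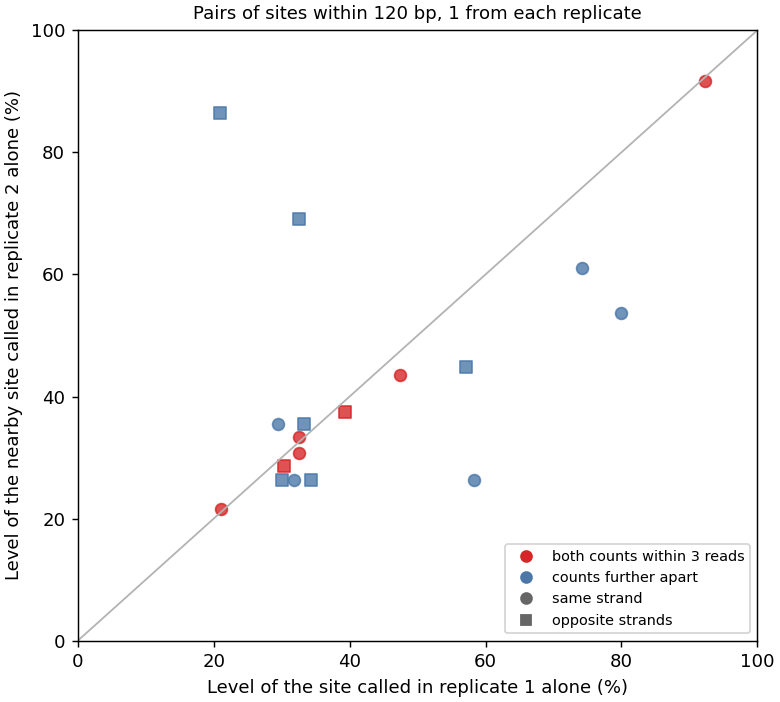
Level of a site called in replicate 1 alone (x axis, %) against that of a site within 120 bp called in replicate 2 alone (y axis, %), for the 18 pairs in the Sfi1 window. Red marks the 7 pairs whose counts differ by at most 3 reads. By that choice they lie near the line of equality, and they range from about 21% to 92%. Squares are pairs on opposite strands.

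Called sites of the same replicate also lay close together. Another called site lay within 100 bp of 17 of 70 sites in replicate 1 (24.3%) and 13 of 55 in replicate 2 (23.6%), against 4.15% and 4.12% over all listed sites. Within 300 bp the shares were 57.1% and 52.7%, against 6.02% and 5.72%. The median distance between neighbouring calls was 627 bp and 792 bp. These shares follow in part from the number of calls for which the locus was chosen.

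Zc3h7a, a zinc finger gene on chromosome 16, was the other protein-coding gene that overlapped such a crowded window. It held 15 sites in each replicate, of which 9 were shared. Its CG share was 60.0% in both replicates (35.7 to 80.2), against 7.14% and 5.45% in Sfi1. Its median depth was 49 and 50 reads and its median level 26.7% and 27.3%. Of its 9 shared sites, 0 had identical counts, against 6 of 25 in Sfi1. These differences between the loci were not tested.

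Other genes of the centriole and centrosome held at most 2 sites called in both replicates. Of 34 such genes, 23 (67.6%) held a site in replicate 1, 15 (44.1%) in replicate 2 and 8 (23.5%) a site called in both. Over all 21839 protein-coding genes, 39.5%, 40.3% and 22.2% did. The median number of shared sites was 0 in the list and over all genes. The listed genes were longer, with a median of 43.5 kb against 17.2 kb. Pcm1, which encodes a scaffold of the centriolar satellites, held the most shared sites of the list, 2, at 86.1% and 83.8% (31 of 36 and 31 of 37 reads) and at 32.3% and 33.3%. Ccp110, whose product caps the centriole, held a site at 82.4% in both (28 of 34 reads). Stil, needed for centriole duplication, held a site at 32.4% in both (12 of 37). The gene of the centrosome scaffold pericentrin, Pcnt, stood at 30.0% in both, Nedd1 at 22.2% and the centrin-binding protein gene Poc5 at 33.3%. In Poc1b and the gamma-tubulin gene Tubg1 the shared sites lay in the flank, at 100% and 53.1% in both. The centrin genes Cetn1, Cetn2, Cetn3 and Cetn4, whose products bind Sfi1 or its relatives, held 0 sites in both replicates. They are short, at 1051 to 16520 bp. Aspm, Plk4, Crocc, Cep97, Rttn, Usp9x and Ofd1 of the list also held 0 sites in both.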

How the data were processed

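The data are 2 CLED-seq libraries of mouse embryonic stem cells. The submitters' processing notes name mm10, SAMtools, Bowtie2 2.4.5, Bismark 0.23.1, FastQC 0.11.9 and cutadapt 4.1, with no role or order. Duplicate removal and the treatment of reads with more than 1 place in the genome are not given in the sources used here. The authors deposited, per the file headers, raw counts of reads that kept or lost the C and their sum, the depth. The authors also deposited p-values with Holm and Benjamini-Hochberg adjustment, per the file headers. Every listed site has 30 or more reads and a Benjamini-Hochberg p below 0.05, so low levels are left out. The deposited p in the Sfi1 window matches a binomial point probability of the count, with 6.93% as background. Depth was 30 to 62 reads per site in the window, or 2583 and 2071 reads in all, so a level is known only roughly. The 95% Wilson intervals, like the Fisher tests, reflect counting error only, since PCR reads without molecular identifiers are not independent molecules. No label says that the replicates came from separate cultures.

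A level is the kept count divided by the depth, and sites were matched by chromosome, position and strand. Genes came from a RefSeq table of GRCm38.p6, with 2 kb flanks and without alternate loci. All 34 centriole genes matched. The listed triplet matched the RefSeq promoter sequence at 1309 of 1309 listed sites in promoter windows. Fisher's exact test was tested on simulated data drawn as independent counts. The replicates here differed by less than such counts do, so that check does not cover their likeness. Software was scipy 1.17.1, pandas 2.3.3 and numpy 2.4.6 under Python 3.11.15. The locus, lists and tests were chosen with earlier results of these data known. The rule for named items takes the 5 highest and 5 lowest shared sites, all CG sites, sites with a depth of at least 50 or a level of 100%, sites with the lowest Fisher p, the 3 highest and 3 lowest sites called in 1 replicate, flank sites and cross-replicate neighbours within 120 bp. It also takes genes within 500 kb, the 5 other genes with the most shared sites and centriole genes with a shared site. Promoter windows, length-matched genes, centrin genes, count equality by kind of read, and the limit of 3 reads for pairs were added after values were seen. As alternatives, p-value thresholds, the depth and level minimums and distances were varied, along with the gene body alone, sites outside crowded windows and each replicate alone.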

Additional observations from a re-analysis of the deposited data

How the results depend on the processing

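No paired analysis was possible because there is 1 group. Over all results and alternatives, 13 values moved by more than 1.5 times, for a count, or by more than the SD between replicates or, for identical counts, the Wilson interval. The other 24 did not. Among the 13, the plus-strand share passed from above 50% to below it (55.1% to 46.7%) at a depth of at least 50. Some of the 24 were settled beforehand and show no robustness. With 2 replicates, the value of each alone always lies within the SD around their mean. A minimum level of 20% dropped no site, since every level in the window was higher. The 24 include falls from 100 distinct sites to 86 at an adjusted p below 0.01 and 67 below 0.001, and from 25 shared sites to 20 at an adjusted p below 0.01 in both. At a depth of at least 50, 6 of the 100 distinct sites and 2 of the 25 shared sites remained by construction, the mean of the replicates' median levels was 38.3% (34.9% in the main setting), the CG share 0% and the plus-strand share 46.7%. With an adjusted p below 0.01 the median level was 37.1%, and below 0.001 it was 45.7%. Stricter thresholds drop the lowest levels first. The pooled level was 42.6%, and outside crowded windows the median was 31.5%. Each of these medians stayed below the medians of 46.7% and 46.3% at sites outside the window, which were not filtered alike. The pooled level is set beside pooled levels of 52.5% and 52.1% outside the window in replicates 1 and 2. With counts within 1 read in place of identical counts, 64.0% of shared sites were alike. Another called site lay within 50 bp of 11.5% of sites and within 300 bp of 54.9%. Leaving out a replicate gave 55 to 70 sites, the lower number without replicate 1. The medians and shares of each replicate alone are those given in the results (median levels 33.7% to 36.1%, CG shares 5.45% to 7.14%). With Holm adjustment, or among the 2 shared sites with a depth of at least 50 in both, 0 sites differed between the replicates by Fisher's exact test. Leaving out a replicate, sites called in both only, shared counts outside crowded windows and the gene list were alternatives added after the data were seen, except for median level, CG share and strand. Of the centriole genes, 6 held a shared site in the gene body and 7 at an adjusted p below 0.01. Results over shared sites have no value without a replicate, since both are needed.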
